A study of Mus musculus with 103 samples.

Results

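Cell cycle genes were followed in mouse embryonic fibroblasts that had been brought to rest, across cell lines and after Cre was induced in lines with floxed Ctcf, Smc3 or Wapl. The set holds 49 genes of the 23339 in the RNA-seq table, chosen by symbol: 3 G1 cyclins, 21 genes of S-phase entry and DNA replication, and 25 genes of mitosis. All 49 were present in each of the 4 deposited tables. Of these, 41 passed a filter for low values and were tested: 3 G1 cyclins, 17 replication genes and 21 mitosis genes. Values are RPKM, read counts scaled by transcript length and library size, and the filter asked for an RPKM of at least 1 in at least 2 of 27 libraries. The 8 genes that did not pass were the replication genes Cdc6, Ccne2, E2f2 and Mybl2 and the mitosis genes Ccnb1, Bub1, Cenpe and Kif11. They stood between 0 and 1.66 RPKM in every library, with the highest value for Ccne2.

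A dividing cell duplicates its DNA in S phase and separates the copies in mitosis, and each phase has its own wave of transcription. The replication wave depends on E2F transcription factors, which the retinoblastoma family holds in check until G1 cyclins and their kinases inactivate it. The mitotic wave peaks later and depends on B-Myb, FoxM1 and the CCAAT-binding factor NF-Y at promoters that carry a cell cycle homology region (CHR). In resting cells the DREAM complex represses both waves, through E2F sites in replication genes and CHR elements in mitosis genes. D-type cyclins differ from both, since growth factor signals rather than the cycle itself set their level.

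The cells were C57BL/6 embryonic fibroblasts taken at E13.5, quiescent, and each library came from 1 clone. Wild-type cells (clones 2 and 3) were untreated or exposed for 4 h to an adenovirus expressing Cre (Adeno-Cre). Rosa26(CreER/+) cells, which express a tamoxifen-activated Cre from the Rosa26 locus and carry no floxed gene (clones 2 and 3), were untreated or given hydroxytamoxifen (4OHT) for 2 to 3 d. Ctcf(fl/fl) cells (clones 1 and 2) were untreated or exposed to Adeno-Cre. Rosa26(CreER/+) Smc3 floxed cells (clone 1 fl/fl, clones 2 to 4 fl/-) and Rosa26(CreER/+) Wapl(fl/-) cells (clones 1 and 2) were untreated or given 4OHT. Ctcf(fl/fl) Wapl(fl/fl) cells were untreated (clones 3 and 4) or exposed to Adeno-Cre (clone 4 alone). Cells were rested for 10 d. For nascent RNA, Ctcf(fl/fl) Wapl(fl/fl) cells exposed to Adeno-Cre and rested were also given the elongation inhibitor DRB for 3.5 h. They were taken then or after 1 d without DRB. CTCF is a DNA-binding insulator protein, Smc3 a core subunit of cohesin, and Wapl releases cohesin from DNA. The fl/- cells lacked 1 allele before any treatment, and each line has its own clones, so line, clone and culture cannot be told apart.

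Depth ran from 7.7 M to 38.6 M reads in genes over the 27 libraries. Fibroblast identity was checked with 11 marker genes, all expressed in every library, with a summed level of 10254 to 18538 RPKM. Markers of other cell types were present too. The summed level of 16 macrophage markers ran from 27.8 to 3778 RPKM, that of skeletal muscle markers from 17.4 to 665, of neural markers from 9.27 to 183, of epithelial markers from 3.46 to 125 and of endothelial markers from 1.48 to 51.8. Single genes carried much of these sums, with Des and Acta1 at up to 637 and 376 RPKM, Tubb3 at up to 158 and Flt1 at up to 46.7, while the endothelial receptor gene Tie1 and the myogenic factor gene Myf5 were at 0 in 19 and 26 libraries. Their values are given beside the results with which they move. Adjusted p-values are Benjamini-Hochberg values from limma, described with the tests. Ctcf RPKM fell from 12.4 to 4.14 after Adeno-Cre in Ctcf(fl/fl) cells and from 10.9 to 3.76 in Ctcf Wapl cells. Wapal, the gene of Wapl, stood at 1.64 RPKM untreated and 0.847 with 4OHT in Wapl cells (adjusted p = 0.167) and fell from 3.32 to 1.52 RPKM in Ctcf Wapl cells. The whole-gene Smc3 value was not lower with 4OHT (9.53 against 11.6 RPKM, adjusted p = 0.119), and no source used here gives the position of the deleted exons. Those libraries are therefore called 4OHT-treated Smc3 floxed cells.

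The promoters of the replication and mitosis genes carried different motifs. RefSeq promoters (build GRCm38.p6, 250 bases before to 50 after the transcription start) were matched for 39 of the 49 genes, and both strands were searched. The CHR letters TTTGAA or TTCGAA occurred in 15 of 20 mitosis promoters (75%), in 3 of 18 replication promoters (16.7%) and in 21.7% of all 27025 genes. E2F letters (TTCCCGCC, TTTCCCGC, TTTGGCGC or TTTCGCGC, which can overlap each other) occurred in 10 of 18 replication genes (55.6%), in 1 of 20 mitosis genes (5%) and in 4% of all genes. CCAAT occurred in 85% of mitosis genes, 61.1% of replication genes and 41.1% of all genes, and 75% of mitosis genes held both CCAAT and CHR letters against 9.65% of all genes. These matches describe letters in the window and are not evidence of binding.

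**Figure D1:**
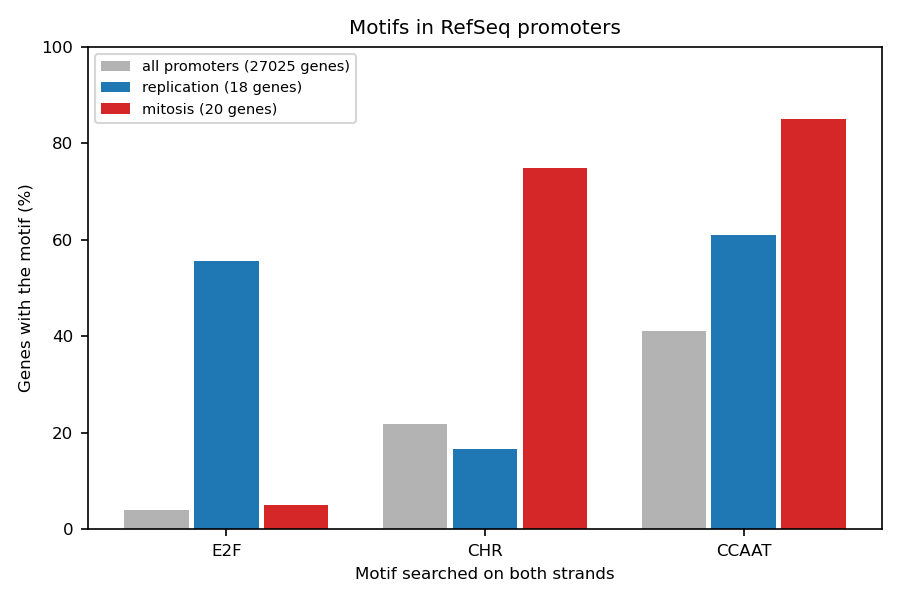
Share of genes (%, y axis) whose RefSeq promoter of 300 bases holds E2F, CHR or CCAAT letters on either strand, for all 27025 genes, 18 replication genes and 20 mitosis genes. E2F letters are most frequent in replication genes (55.6%) and CHR letters in mitosis genes (75%).

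The promoters of 3 mitosis genes and 3 replication genes whose levels carry the results below are shown 5' to 3' on the strand of the gene, with CHR, CCAAT and E2F letters, on either strand, in capitals. Ccnb2, cyclin B2, lies on the minus strand (chr9:70421505-70421804), as does Cdk1, the mitotic kinase (chr10:69352863-69353162). Ube2c, the ubiquitin-conjugating enzyme of the anaphase-promoting complex, lies on the plus strand (chr2:164769679-164769978). Mcm3 lies on the minus strand (chr1:20820263-20820562) and Mcm5 on the plus strand (chr8:75109259-75109558); both encode subunits of the replicative helicase. Cdt1, which loads that helicase, lies on the plus strand (chr8:122567765-122568064). In Ube2c the capitals CCAATTGG are a CCAAT on each strand, overlapping, and TTCAAA is the CHR letters on the other strand. In Mcm3 and Mcm5 adjoining E2F letters overlap.
Ccnb2: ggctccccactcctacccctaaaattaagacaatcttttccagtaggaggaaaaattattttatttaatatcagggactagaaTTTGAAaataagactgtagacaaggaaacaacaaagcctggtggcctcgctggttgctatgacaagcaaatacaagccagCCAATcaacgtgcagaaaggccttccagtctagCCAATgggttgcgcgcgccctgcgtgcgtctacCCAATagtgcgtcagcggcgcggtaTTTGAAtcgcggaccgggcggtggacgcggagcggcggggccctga
Cdk1: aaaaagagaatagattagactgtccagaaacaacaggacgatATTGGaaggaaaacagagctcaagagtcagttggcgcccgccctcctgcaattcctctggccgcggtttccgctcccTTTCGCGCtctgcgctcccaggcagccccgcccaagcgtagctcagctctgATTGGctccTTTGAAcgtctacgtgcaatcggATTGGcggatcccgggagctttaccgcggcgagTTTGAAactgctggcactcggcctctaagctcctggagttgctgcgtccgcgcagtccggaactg
Ube2c: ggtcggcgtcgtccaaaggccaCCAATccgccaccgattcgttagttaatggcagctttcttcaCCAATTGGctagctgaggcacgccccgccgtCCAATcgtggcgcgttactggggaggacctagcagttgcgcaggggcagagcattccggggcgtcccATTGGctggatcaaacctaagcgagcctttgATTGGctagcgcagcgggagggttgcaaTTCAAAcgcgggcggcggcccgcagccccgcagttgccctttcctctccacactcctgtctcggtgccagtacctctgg
Mcm3: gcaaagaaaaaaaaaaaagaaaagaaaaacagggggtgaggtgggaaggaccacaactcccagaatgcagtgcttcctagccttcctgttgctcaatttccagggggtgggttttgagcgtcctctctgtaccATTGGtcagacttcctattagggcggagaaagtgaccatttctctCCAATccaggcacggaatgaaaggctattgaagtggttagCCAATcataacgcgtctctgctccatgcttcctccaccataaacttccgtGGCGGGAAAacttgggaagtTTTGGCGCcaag
Mcm5: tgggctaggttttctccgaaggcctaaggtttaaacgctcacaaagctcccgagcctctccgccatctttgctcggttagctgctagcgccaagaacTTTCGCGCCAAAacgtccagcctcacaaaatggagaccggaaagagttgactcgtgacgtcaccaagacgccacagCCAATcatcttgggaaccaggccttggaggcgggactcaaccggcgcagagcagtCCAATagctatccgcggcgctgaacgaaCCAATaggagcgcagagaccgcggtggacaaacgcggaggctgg
Cdt1: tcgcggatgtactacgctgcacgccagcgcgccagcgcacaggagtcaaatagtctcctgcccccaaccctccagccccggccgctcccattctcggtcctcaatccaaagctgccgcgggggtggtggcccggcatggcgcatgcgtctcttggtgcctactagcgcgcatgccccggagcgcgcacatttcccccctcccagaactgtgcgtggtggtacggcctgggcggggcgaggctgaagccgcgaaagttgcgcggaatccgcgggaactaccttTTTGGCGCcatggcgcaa

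All 3 G1 cyclins were abundant at rest and most mitosis genes were near the detection filter. Ccnd2 (cyclin D2) ranged from 117 to 555 RPKM over the 27 libraries, Ccnd1 (cyclin D1) from 88.3 to 317 and Ccnd3 (cyclin D3) from 78.2 to 193. Among the replication genes Pcna, the sliding clamp of DNA polymerases, ranged from 16.2 to 90.9 RPKM and E2f1 from 15.4 to 41.9. The Mcm helicase genes Mcm2 to Mcm7 lay between 1.44 and 16.5 RPKM. Ccnb1, the other B-type mitotic cyclin, never passed 0.577 RPKM, and Mki67, the gene of the Ki-67 proliferation antigen, never passed 1.74. By mean RPKM, these genes lay between the 38.5th percentile (Ccnb1) and the 99.4th (Ccnd2) of all genes in the table.

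**Figure D2:**
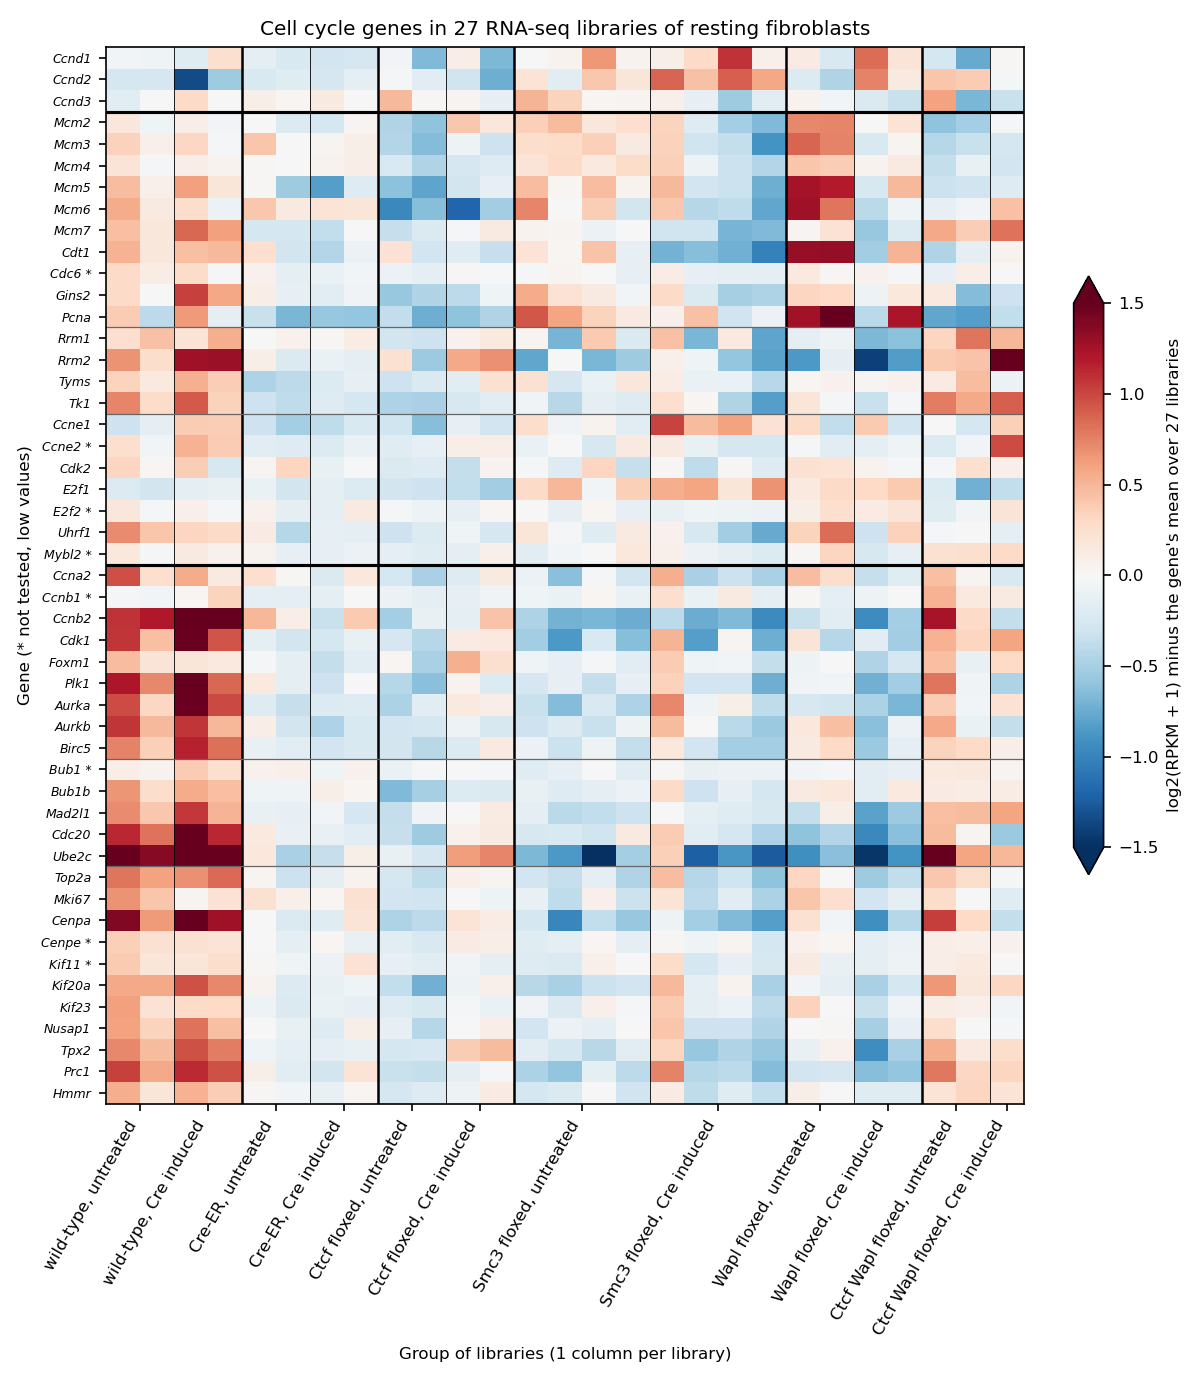
Level of each of the 49 genes (rows, grouped by role) in each of the 27 libraries (columns, grouped by line and treatment), as log2(RPKM + 1) minus the gene's mean over libraries. Most mitosis rows are highest in the wild-type columns, and the rows of Mcm2 to Mcm6, Pcna and Cdt1, but not that of Mcm7, are highest in untreated Wapl cells.

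Summed over each class, mitosis transcripts varied more between libraries than the other classes did. The 25 mitosis genes together ran from 22.5 RPKM to 156 RPKM, a 6.93-fold range. The 21 replication genes ran over a 2.47-fold range from 101 to 248 RPKM, and the 3 G1 cyclins over a 2.47-fold range from 388 to 960 RPKM. In bulk RNA a lower sum can come from fewer cycling cells or from less RNA per cell, and these cannot be told apart.

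Wild-type fibroblasts held the highest residual mitotic expression of the 6 untreated lines. Their mitosis sums were 117 and 86.2 RPKM in clones 2 and 3, and those of Ctcf Wapl cells were 97.9 and 57.3 RPKM in clones 3 and 4. Cre-ER cells had 50.2 and 39.0 RPKM, Wapl cells 43.6 and 42.8, and Ctcf cells 34.3 and 31.8. The 4 Smc3 clones had 34.2, 29.1, 33.8 and 34.8 RPKM. Only the Ctcf Wapl range overlapped that of wild-type cells; the Smc3 and Ctcf ranges overlapped each other, and the Wapl values lay within the range of the Cre-ER clones.

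Replication transcripts put the lines in another order. Wapl cells were highest, with replication sums of 233 and 248 RPKM, above each of the other untreated libraries. The 4 Smc3 clones had 197, 174, 166 and 154 RPKM and wild-type cells 180 and 144, which overlapped. Cre-ER cells had 141 and 121 RPKM, Ctcf Wapl cells 134 and 131, and Ctcf cells were lowest with 114 and 101. The G1 cyclin sums ran from 469 RPKM in Wapl clone 2 to 760 in Smc3 clone 3, and the 581 to 760 RPKM of the Smc3 clones lay above the wild-type, Cre-ER and Wapl clones. The Smc3 range overlapped those of Ctcf cells (487 to 615 RPKM) and Ctcf Wapl cells (554 to 717).

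**Figure D3:**
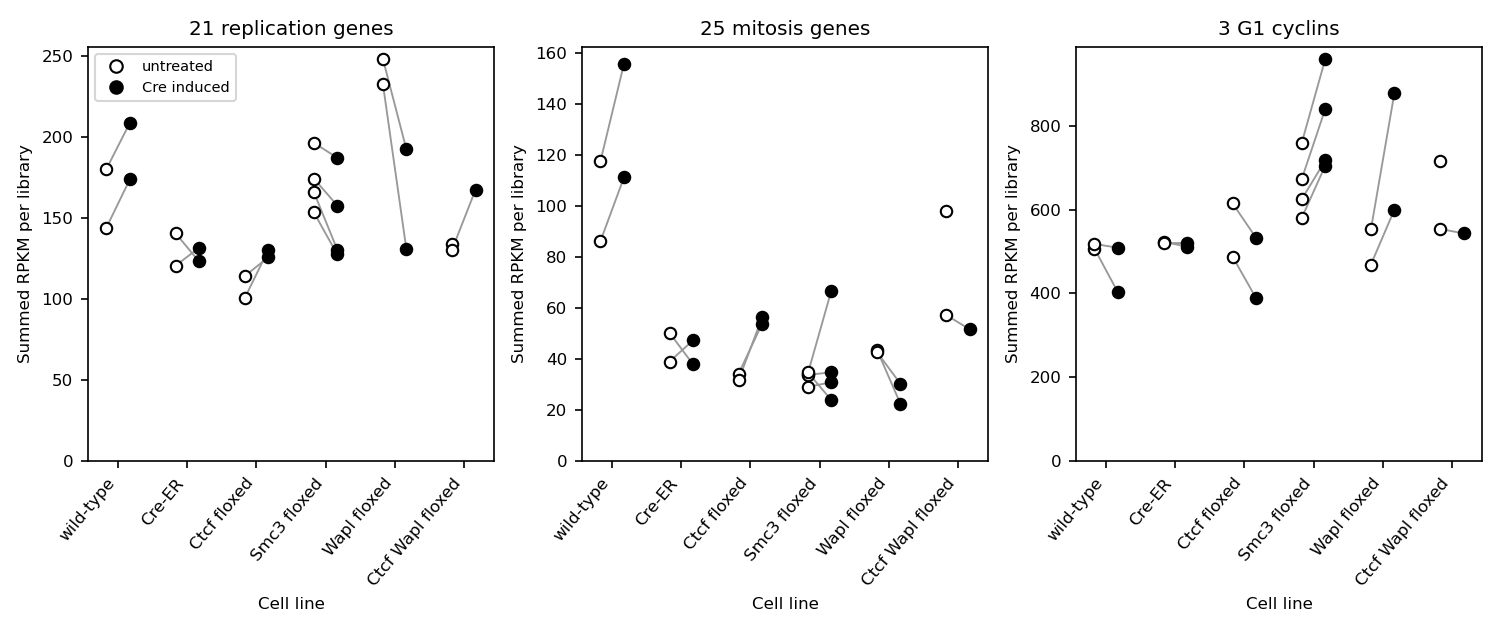
Summed RPKM (y axis) of the replication, mitosis and G1 cyclin genes in every library (points), by line (x axis), untreated (open) or with Cre induced by Adeno-Cre or 4OHT (filled). Untreated wild-type mitosis sums are 117 and 86.2 RPKM against 34.3 and 31.8 in Ctcf cells, and untreated Wapl replication sums are 233 and 248 RPKM against 114 and 101 in Ctcf cells.

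Genes were tested one by one with limma, a linear model fitted on log2(RPKM + 1) to all 12604 genes that passed the filter, with Benjamini-Hochberg adjusted p-values over all of them and a threshold of 0.05. All log2 differences given here use that scale, on which genes with low values appear to change less than their RPKM. The 6 untreated lines differed in 30 of the 41 genes (13 of 17 replication genes, 17 of 21 mitosis genes and 0 of 3 G1 cyclins) against a background of 44.8% of all genes. All 21 mitosis genes tested had their highest line mean in wild-type cells, and their lowest in Ctcf (13 genes), Smc3 (7) or Wapl cells (1). Of the 17 replication genes, 10 were highest in Wapl cells, and 11 were lowest in Ctcf cells.

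In untreated wild-type cells 16 of 21 mitosis genes were higher than the mean of the other 5 lines, and 0 of 17 replication genes were, against 7.85% of all genes called higher. The mitosis median was 0.71 on the log2 scale, the replication median 0.19 and that of all genes 0.048. Ccnb2 stood at 6.84 and 7.51 RPKM in wild-type cells, 4.24 and 2.96 in Cre-ER cells, 1.61 and 2.43 in Ctcf cells, 1.95 and 2.29 in Wapl cells, 7.73 and 3.52 in Ctcf Wapl cells, and 1.22 to 1.70 in Smc3 cells. It was thus high in both wild-type clones and in 1 of 2 Ctcf Wapl clones (log2 difference 1.17, adjusted p = 0.00322). Cdc20, which activates the anaphase-promoting complex, stood at 12.5 and 9.86 RPKM in wild-type cells and between 3.04 and 7.54 in the other untreated libraries (1.14, adjusted p = 0.000586). These groups did not overlap. Ube2c, with 20.9 and 16.8 RPKM, was higher by 1.67 (adjusted p = 0.0084), and the centromeric histone gene Cenpa, with 9.45 and 5.20 RPKM, by 1.08 (adjusted p = 0.00739). Ube2c and Cenpa overlapped with Ctcf Wapl clone 3, at 25.8 and 7.15 RPKM.

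The summed level of macrophage markers was 1743 RPKM in wild-type clone 2 and 105 in clone 3, and the mitosis sums were 117 and 86.2. Of 6 tested epithelial markers 4 were also higher in wild-type cells, and skeletal muscle sums were 145 and 665 RPKM. The part of these markers in the result was not tested. The count of 16 rested on both wild-type libraries: it was 2 without untreated clone 2 and 6 without untreated clone 3.

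Untreated Wapl(fl/-) cells showed the reverse division, with 9 of 17 replication genes higher than in the other lines, 0 of 21 mitosis genes higher and 2 lower, against 15.1% of all genes higher and 14.2% lower. The replication median was 0.41 and the mitosis median -0.059, against 0.006 for all genes. Pcna stood at 72.2 and 90.9 RPKM in Wapl cells, 57.4, 45.0, 37.6 and 32.5 in Smc3 cells, 38.8 and 22.3 in wild-type cells, and 16.2 to 23.2 in the other 3 lines. Both Wapl clones were above every other untreated library (log2 difference 1.70, adjusted p = 0.000649). Cdt1 stood at 10.5 RPKM in each Wapl clone and between 2.38 and 5.65 in the other untreated libraries (1.29, adjusted p = 0.000304). Mcm5 stood at 9.21 and 8.84 RPKM against 1.49 to 4.93 elsewhere, and Mcm2 at 16.3 and 16.5 against 5.95 to 13.6. Neither gene overlapped (Mcm5 1.37, Mcm2 0.89 on the log2 scale). Mcm3, Mcm4, Mcm6, E2f1 and Uhrf1, a reader of hemimethylated DNA at replication forks, were the other 5. The mitosis genes that were lower were Cdc20 (-0.65, adjusted p = 0.0121) and Ube2c (-1.08, adjusted p = 0.0358).

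Macrophage markers were highest in the same libraries. Of 15 tested, 8 were higher in untreated Wapl cells (median 2.74 on the log2 scale), and their summed level was 3778 and 2726 RPKM against 43.2 to 1743 in the other untreated libraries. Their part in the result was not tested. Counted in either direction 11 genes differed, against 29.3% of all genes, and this was 4 without Wapl untreated clone 1 and 6 without clone 2.

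In untreated Smc3 floxed cells 10 of 21 mitosis genes were lower than in the other lines and 0 were higher, against 13.9% of all genes lower. Of 17 replication genes 2 were higher, against 9.65% of all genes, and 1 was lower. Ccnb2 was lower by 0.98 on the log2 scale (adjusted p = 0.000663), and Ube2c, at 3.32, 2.80, 1.29 and 3.85 RPKM, had a log2 difference of -1.24 (adjusted p = 0.00456). Ube2c overlapped with Wapl cells (2.66 and 3.46 RPKM). Cdk1, at 1.70, 1.14, 2.31 and 1.48 RPKM, was lower by 0.67. E2f1 ran the other way, with 31.9, 37.0, 25.2 and 33.4 RPKM against 15.4 to 32.0 elsewhere (0.47, adjusted p = 0.00379), and only the Wapl clones overlapped with that range. Macrophage sums were 1661 and 1578 RPKM in clones 1 and 3 and 43.2 and 85.2 in clones 2 and 4, while the mitosis sums of the 4 clones lay between 29.1 and 34.8. The count of 13 genes in all, against 23.5% of all genes in either direction, became 7 without Cre-ER untreated clone 2, and 8, 6 and 5 without Smc3 untreated clones 1, 2 and 4.

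Untreated Ctcf(fl/fl) cells were low in both classes, with 4 of 17 replication genes and 2 of 21 mitosis genes lower, against 4.74% of all genes. All 17 replication genes and all 21 mitosis genes had negative log2 differences, with medians of -0.44 and -0.48 against -0.089 for all genes. Mcm6 stood at 2.20 and 3.03 RPKM in Ctcf cells, below the 4.18 to 14.2 of every other untreated library (-1.16, adjusted p = 0.0122). Bub1b, a kinase-like protein of the spindle checkpoint, stood at 0.521 and 0.708 RPKM against 1.12 to 2.81 elsewhere, also without overlap (-0.69, adjusted p = 0.00509). These 6 genes, against 8.06% of all genes in either direction, became 0 without Ctcf untreated clone 1, 1 without clone 2 and 11 without Ctcf Wapl untreated clone 4.

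Untreated Ctcf Wapl cells had higher levels of some mitosis genes and lower levels of Mcm2, Pcna, E2f1 and Cdt1. In them 4 of 21 mitosis genes and 2 of 17 replication genes were higher and 4 replication genes were lower, against 8.85% and 10.8% of all genes. Tk1, the thymidine kinase that salvages nucleosides for DNA synthesis, stood at 5.80 and 4.92 RPKM and was higher by 0.75, and Mcm7, at 12.7 and 10.9 RPKM, was the other. Mcm2, at 5.95 and 6.40 RPKM, had a log2 difference of -0.65 (adjusted p = 0.0131), and Pcna, at 16.7 and 16.2 RPKM, of -0.98. The count of 10, against 19.6% of all genes in either direction, was 2, both lower, without untreated clone 3 and 3, all higher, without clone 4. Its 6 higher and 4 lower genes became 9 and 3 after median-of-ratios rescaling of the libraries. In Cre-ER cells 0 of 41 genes differed from the other lines by limma, against 5.21% of all genes, and 1 passed without Smc3 untreated clone 2. An unadjusted p under 0.05 was reached by 3, against 19.3% of all genes.

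Transcripts of the mitotic kinases were also high in wild-type cells. Plk1, the polo-like kinase, stood at 7.40 and 4.96 RPKM in wild-type cells, 3.03 and 2.27 in Cre-ER cells, 1.70 and 1.34 in Ctcf cells, 2.49 and 2.53 in Wapl cells, 5.34 and 2.49 in Ctcf Wapl cells, and 1.83 to 2.33 in the 4 Smc3 clones. Both wild-type clones and Ctcf Wapl clone 3 were high, and Ctcf cells were lowest. Aurka, the centrosomal aurora kinase, stood at 7.10 and 4.10 RPKM in wild-type cells, 2.58 and 2.22 in Cre-ER cells, 1.95 and 2.65 in Ctcf cells, 2.48 and 2.39 in Wapl cells, 4.35 and 3.00 in Ctcf Wapl cells, and 1.61 to 2.49 in the 4 Smc3 clones. Here wild-type clone 3, at 4.10 RPKM, lay below Ctcf Wapl clone 3, so these groups overlapped. Cdk1 stood at 7.18 and 4.29 RPKM in wild-type cells, 2.52 and 2.20 in Cre-ER cells, 2.26 and 1.87 in Ctcf cells, 3.45 and 1.89 in Wapl cells, 4.56 and 3.84 in Ctcf Wapl cells, and 1.14 to 2.31 in the 4 Smc3 clones, with wild-type clone 3 again below Ctcf Wapl clone 3 and Smc3 clones among the lowest.

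Genes of the chromosomes and the spindle likewise stood high in wild-type cells. Cenpa stood at 9.45 and 5.20 RPKM in wild-type cells, 2.98 and 2.44 in Cre-ER cells, 1.88 and 2.04 in Ctcf cells, 3.65 and 2.86 in Wapl cells, 7.15 and 3.88 in Ctcf Wapl cells, and 1.02 to 2.31 in the 4 Smc3 clones. Smc3 clone 2, at 1.02 RPKM, was the lowest untreated library. Tpx2 stood at 4.51 and 3.67 RPKM in wild-type cells, 2.21 and 2.02 in Cre-ER cells, 1.79 and 1.83 in Ctcf cells, 2.11 and 2.52 in Wapl cells, 3.88 and 2.71 in Ctcf Wapl cells, and 1.51 to 1.99 in the 4 Smc3 clones, with Ctcf Wapl clone 3 within the wild-type range. Top2a, the topoisomerase that untangles sister chromatids, stood at 3.71 and 3.09 RPKM in wild-type cells, 1.76 and 1.16 in Cre-ER cells, 1.25 and 1.08 in Ctcf cells, 2.33 and 1.71 in Wapl cells, 2.56 and 2.23 in Ctcf Wapl cells, and 0.963 to 1.43 in the 4 Smc3 clones. Both wild-type clones were above every other untreated library. Mki67 stood at 1.74 and 1.28 RPKM in wild-type cells, 1.01 and 0.805 in Cre-ER cells, 0.411 and 0.396 in Ctcf cells, 1.29 and 1.05 in Wapl cells, 1.08 and 0.706 in Ctcf Wapl cells, and 0.315 to 0.810 in the 4 Smc3 clones, with Wapl clone 1 within the range of the wild-type clones.

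Genes of deoxynucleotide synthesis did not follow the helicase genes. Rrm2 stood at 10.3 and 7.50 RPKM in wild-type cells, 6.50 and 5.10 in Cre-ER cells, 7.28 and 3.84 in Ctcf cells, 2.91 and 5.40 in Wapl cells, 8.31 and 8.48 in Ctcf Wapl cells, and 3.10 to 6.09 in the 4 Smc3 clones. The highest value was in wild-type clone 2, and Wapl clone 1 was lowest although its helicase genes were high. Rrm1, the large subunit of ribonucleotide reductase, stood at 14.8 and 17.1 RPKM in wild-type cells, 12.4 and 12.8 in Cre-ER cells, 9.94 and 9.68 in Ctcf cells, 11.1 and 11.6 in Wapl cells, 15.5 and 22.2 in Ctcf Wapl cells, and 7.16 to 16.5 in the 4 Smc3 clones, with Ctcf Wapl clone 4 highest. Tk1 stood at 5.63 and 3.84 RPKM in wild-type cells, 2.23 and 2.08 in Cre-ER cells, 1.90 and 1.86 in Ctcf cells, 3.53 and 2.93 in Wapl cells, 5.80 and 4.92 in Ctcf Wapl cells, and 2.00 to 2.86 in the 4 Smc3 clones, highest in Ctcf Wapl clone 3 and wild-type clone 2. Cdk2, the kinase partner of cyclin E and cyclin A, stood at 6.86 and 5.41 RPKM in wild-type cells, 5.50 and 6.87 in Cre-ER cells, 4.42 and 4.49 in Ctcf cells, 6.37 and 6.23 in Wapl cells, 5.22 and 6.45 in Ctcf Wapl cells, and 3.96 to 6.84 in the 4 Smc3 clones. Cdk2 is not a gene of deoxynucleotide synthesis. Its Ctcf clones lay below the wild-type ones, and the other lines overlapped with wild-type cells.

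**Figure D4:**
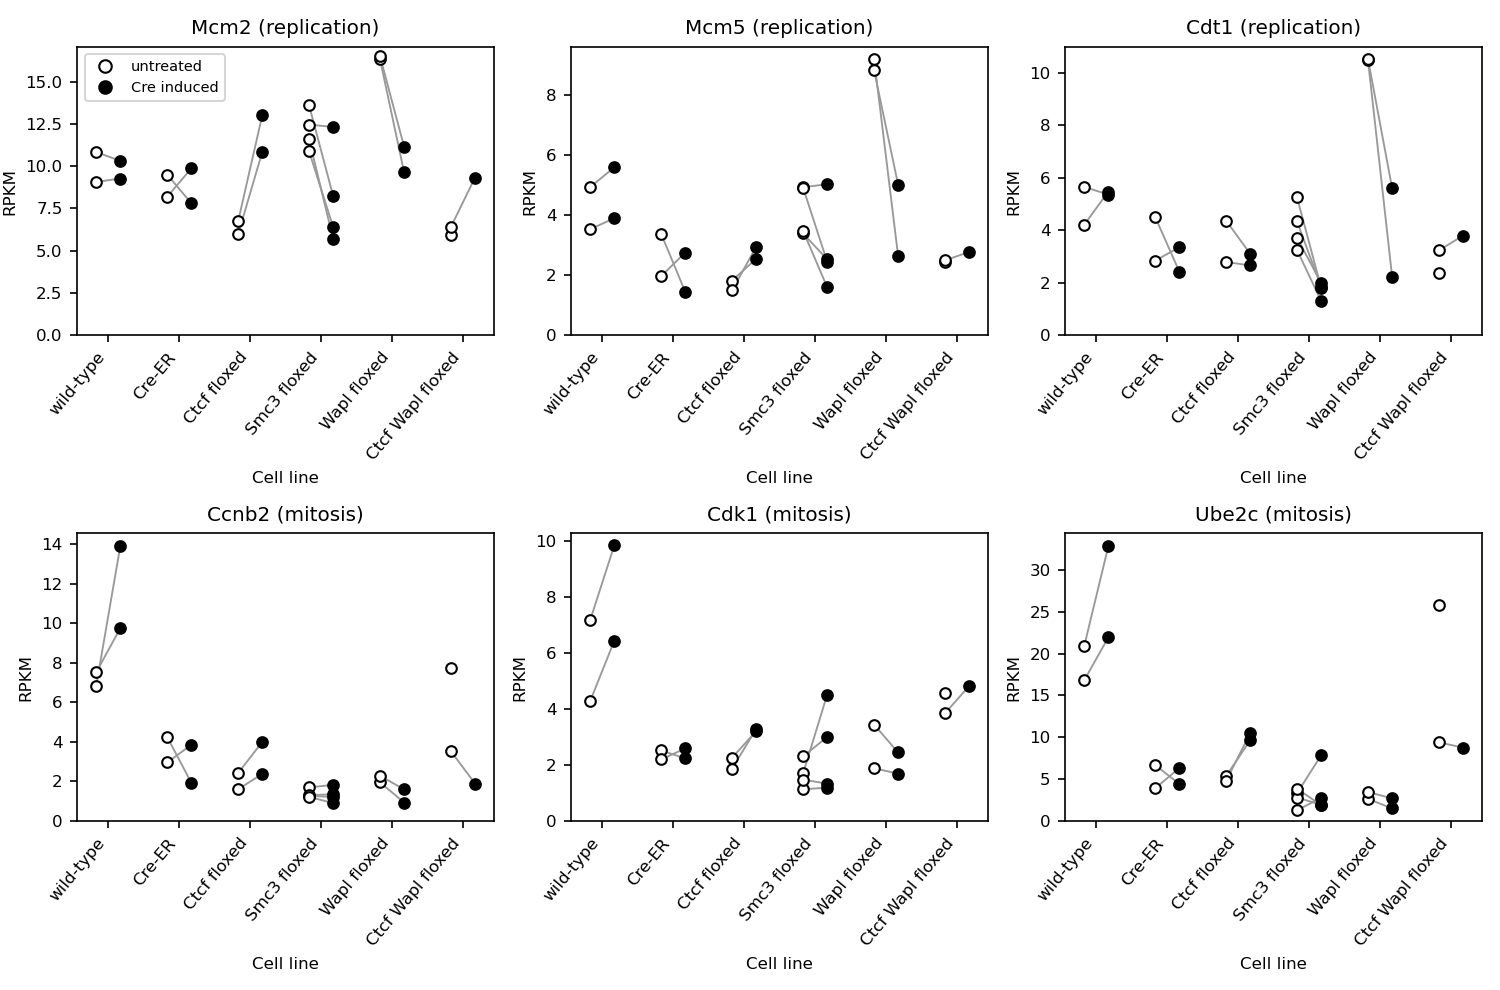
RPKM (y axis) of 3 replication genes (Mcm2, Mcm5, Cdt1) and 3 mitosis genes (Ccnb2, Cdk1, Ube2c) in every library, by line (x axis), untreated (open) or with Cre induced by Adeno-Cre or 4OHT (filled), with lines joining libraries of a clone. Untreated Wapl cells hold the highest Cdt1 (10.5 RPKM in each clone) and wild-type cells high Ccnb2 (6.84 to 13.9 RPKM).

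Each treatment was compared with the untreated cells of its line, the treatments without a floxed gene first. After 4OHT in Cre-ER cells 0 of 41 genes changed by limma, against 0.0% of all genes. There 0 had an unadjusted p under 0.05, against 0.325% of all genes. After Adeno-Cre in wild-type cells 0 of 41 passed, against 3.24% of all genes. An unadjusted p under 0.05 was reached by 8, against 18.5% of all genes. Of 21 mitosis genes 17 had positive fold changes (median 0.24, against 0.038 for all genes), and the mitosis sums went from 117 and 86.2 RPKM to 156 and 111. Rrm2, the small subunit of ribonucleotide reductase, had 10.3 and 7.50 RPKM untreated and 16.0 and 16.3 after Adeno-Cre, and Ccne1 (cyclin E1) had 7.85 and 8.94 against 13.3 and 13.1. Both were higher in 2 of 2 clones without overlap. So were 6 of 17 replication genes, these 2 included, and 7 of 21 mitosis genes. Neural marker sums went from 64.7 and 66.8 RPKM to 183 and 135, and their part in these values was not tested.

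The labels give treated and untreated libraries of the same clones, so a second fit took the clone as a block. With the clone block 5 genes passed in wild-type cells, against 23% of all genes: Rrm2 (0.81), Ccne1 (0.60), the replication initiation gene Gins2 (0.66) and Mcm7 (0.43) higher and Ccnd2 (-0.68) lower. Without wild-type Adeno-Cre clone 3 and without the block, 1 gene passed.

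After Adeno-Cre in Ctcf(fl/fl) cells the helicase gene Mcm2 rose, and all 21 mitosis genes tested had higher values after treatment in each of the 2 clones. Mcm2 went from 6.73 and 5.97 RPKM to 13.0 and 10.8, higher in 2 of 2 clones without overlap. Its log2 fold change was 0.81 (SE 0.22, adjusted p = 0.0317), and it was the 1 gene of 41 past the threshold, against 5.04% of all genes called higher. Without any 1 of the 4 Ctcf libraries it missed the threshold (adjusted p 0.0741 to 0.178, a count of 0).

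All 21 mitosis genes tested had positive fold changes (median 0.38 against 0.045 for all genes), and 20 of 21 had both treated values above both untreated ones, against 27.3% of all genes. Of the 17 replication genes 10 were above (median 0.27). Tpx2, which builds the spindle around chromosomes, went from 1.79 and 1.83 RPKM to 3.37 and 3.65, and Ube2c from 5.37 and 4.80 to 9.65 and 10.5. Cdk1 went from 2.26 and 1.87 RPKM to 3.21 and 3.29. These 3 did not overlap but missed the threshold. With the clone block 3 genes rose, against 25% of all genes called: Mcm2 (adjusted p = 0.00895), the mitotic transcription factor gene Foxm1 (0.62, adjusted p = 0.0123) and Tpx2 (0.68, adjusted p = 0.0194).

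In the test of the difference from Adeno-Cre in wild-type cells 0 of 41 genes passed by limma (0 with the clone block), against 1.46% of all genes. An unadjusted p under 0.05 was reached by 3, against 9.04% of all genes, and the mitosis median was 0.17. The treated mitosis sums of 53.9 and 56.3 RPKM remained below the untreated wild-type sums of 117 and 86.2. Macrophage sums were 710 and 333 RPKM before and 450 and 292 after Adeno-Cre, and neural marker sums 36.5 and 36.1 before and 171 and 170.0 after. Their part in the result was not tested.

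In 4OHT-treated Smc3 floxed cells Cdt1 and 3 helicase genes fell, cyclin E1 and cyclin D2 rose, and 0 of 21 mitosis genes passed the test. Of 41 genes 6 passed, near the 15% of all genes called in either direction. Of these 6 genes 2 rose, against 9.37% of all genes, and 4 fell, against 5.6%. Cdt1 went from 4.33, 3.71, 5.25 and 3.24 RPKM in clones 1 to 4 to 1.84, 1.98, 1.80 and 1.297. All 4 treated values were below all untreated ones (-0.90, adjusted p = 0.00385). Mcm7 went from 8.53, 8.46, 7.65 and 8.15 RPKM to 6.49, 6.51, 4.67 and 4.83, also without overlap (-0.49, adjusted p = 0.0109).

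Mcm2 fell (-0.57, adjusted p = 0.0193) from 12.5, 13.6, 10.9 and 11.6 RPKM to 12.3, 8.23, 6.39 and 5.68, with clone 1 nearly level and the other 3 clones lower. Mcm3 did likewise (-0.56, adjusted p = 0.0459), from 8.23, 8.33, 8.84 and 7.49 RPKM to 8.82, 5.29, 5.02 and 3.15, with clone 1 above its untreated value. For both genes the groups overlapped through clone 1, the only fl/fl clone. Ccne1 rose from 12.2, 9.63, 10.4 and 8.74 RPKM to 21.1, 14.3, 15.7 and 11.7 (0.55, adjusted p = 0.0428), and Ccnd2 from 343, 267, 396 and 340 to 548, 406, 555 and 448 (0.54, adjusted p = 0.0426). Both rose in 4 of 4 clones; Ccnd2 did not overlap and Ccne1 did.

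The replication median was -0.39 and the mitosis median 0.036, against 0.067 for all genes, and 0 of 21 mitosis genes had treated values all above or all below the untreated ones, against 9.54% and 6.12% of all genes. Cdt1 and Mcm7 passed without each of the 8 Smc3 libraries in turn (highest adjusted p 0.0182 and 0.0454). Mcm2 passed in 5 of these 8 fits, Ccne1 and Ccnd2 in 2 each and Mcm3 in 1. The count of 6 was 2 without untreated clone 2 or 4OHT clone 3, and 3 without untreated clone 4. Rescaling by the median of ratios left 0 rises and 4 falls, while voom on recovered reads and a fit with no filter each left 0 and 3, so the calls of Ccne1 and Ccnd2 ended in all 3. With the clone block 13 genes passed, against 36.6% of all genes, among them Mcm4, Mcm6, Gins2, Uhrf1 and Ccnd3 lower and E2f1 and the mitotic kinase gene Aurka higher.

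Macrophage sums fell in the same clones, from 1661, 43.2, 1578 and 85.2 RPKM to 196, 28.0, 301 and 27.8. Cdt1 fell in each of these clones, with the values given above. The part of the macrophage markers in the result was not tested. Against 4OHT in Cre-ER cells 0 of 41 genes passed by limma, against 1.23% of all genes. An unadjusted p under 0.05 was reached by 1, against 11.5% of all genes. Mcm7 passed with the clone block (-0.57, adjusted p = 0.0304).

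After 4OHT in Wapl(fl/-) cells Cdt1 fell, and most replication and mitosis genes had lower values in both clones. Cdt1 went from 10.5 RPKM in each clone to 2.23 and 5.61 (log2 fold change -1.32, SE 0.28, adjusted p = 0.0147). It was the 1 gene past the threshold, against 0.928% of all genes called lower, and 16 of 41 genes had an unadjusted p under 0.05, against 14.7% of all genes. Without Wapl untreated clone 1, untreated clone 2 or 4OHT clone 1 the count was 0 (Cdt1 adjusted p up to 0.432), and without 4OHT clone 2 it was 2.

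All 21 mitosis genes had negative fold changes (median -0.41), as did 14 of 17 replication genes (median -0.54), against a median of -0.010 for all genes. In 18 of 21 mitosis genes and 11 of 17 replication genes both treated values lay below both untreated ones, against 25.6% of all genes. Mcm5 went from 9.21 and 8.84 RPKM to 2.63 and 5.01, and Mcm6 from 14.2 and 9.91 to 3.74 and 5.00. Pcna went from 72.2 and 90.9 RPKM to 22.1 and 70.3. All 3 were lower in 2 of 2 clones without overlap, and Pcna much more so in clone 1.

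Aurkb, the kinase of the chromosomal passenger complex, went from 2.17 and 2.88 RPKM to 0.830 and 1.65, and Birc5 (survivin), its partner, from 1.28 and 1.56 to 0.420 and 0.891. Mitosis sums went from 43.6 and 42.8 RPKM to 22.5 and 30.3, without overlap. G1 cyclins did not share this direction: Ccnd2 had 259 and 219 RPKM untreated and 502 and 328 treated, and Ccnd1 163 and 128 against 268 and 172. Both were higher in 2 of 2 clones and without overlap.

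With the clone block 14 genes passed, against 14.6% of all genes. Those that fell were Cdt1, Mcm2, Mcm3, Mcm5, Mcm6, Mcm7 and Pcna among replication genes and Tpx2, Cenpa, Mki67, Birc5 and Mad2l1 among mitosis genes, while Ccnd1 (0.57) and Ccnd2 (0.77) rose. Against 4OHT in Cre-ER cells 0 of 41 passed by limma, against 0.143% of all genes. An unadjusted p under 0.05 was reached by 5, against 6.42% of all genes. Mcm6 passed with the block (-1.19, adjusted p = 0.0395). Macrophage sums went from 3778 and 2726 RPKM to 864 and 2326. The part of these markers in the result was not tested.

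**Figure D5:**
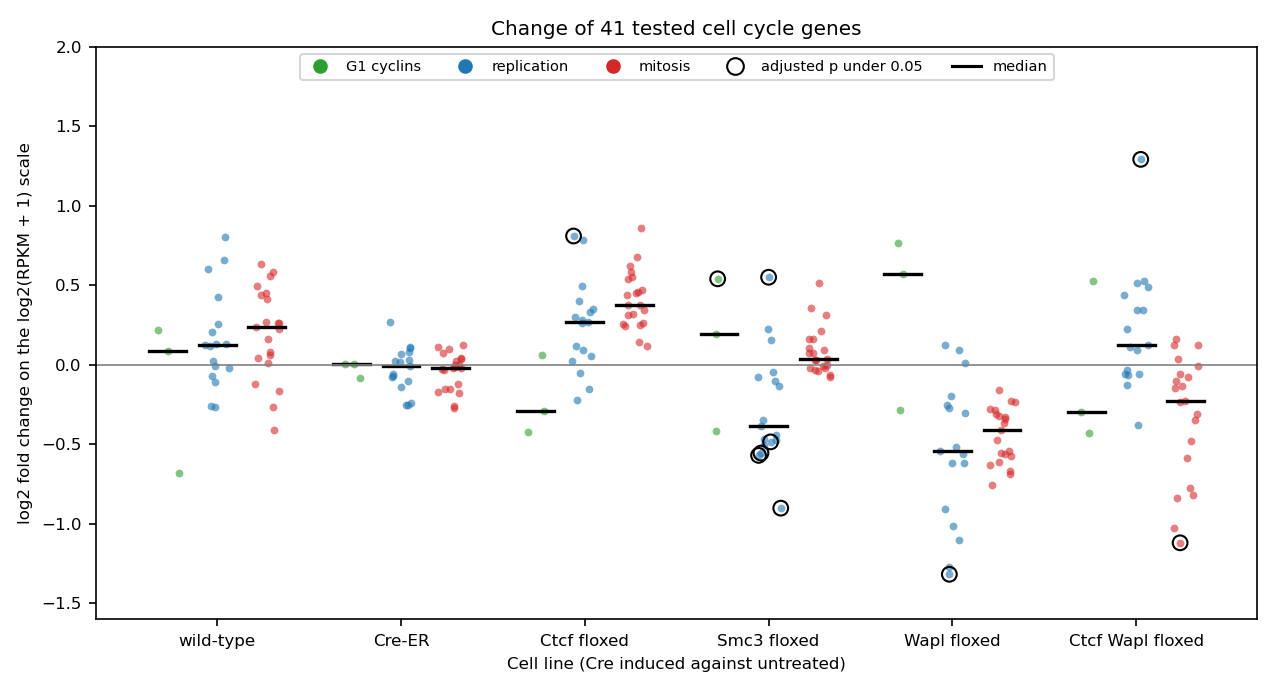
Log2 fold change of each tested gene (points) after treatment in each line, on the log2(RPKM + 1) scale, for G1 cyclins, replication and mitosis genes, with medians as bars and circles around genes past the adjusted p threshold. All 21 mitosis genes are above 0 in Ctcf cells and below 0 in Wapl cells.

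In the Adeno-Cre library of Ctcf Wapl clone 4, Rrm2 rose and Ccnb2 fell. Rrm2 went from 8.31 and 8.48 RPKM in untreated clones 3 and 4 to 22.0 (1.29, adjusted p = 0.0313), and Ccnb2 from 7.73 and 3.52 to 1.89 (-1.12, adjusted p = 0.0437). The treated library lay outside both untreated clones in each case, as 1 library often does against 2. It lay above both in 10 of 17 replication genes and below both in 2. Of 21 mitosis genes it lay above in 2 and below in 13, so this adds little to the calls of Rrm2 and Ccnb2. Of 41 genes these 2 passed, against 10.5% of all genes higher and 5.34% lower, and the count was 0 without untreated clone 3 and 5, all lower, without untreated clone 4. Rrm2 missed the threshold without either untreated clone (adjusted p 0.0515 and 0.108), with a pseudocount of 0.1 (adjusted p = 0.057) and after median-of-ratios rescaling (1.08, adjusted p = 0.11). The rescaled fit gave 0 higher and 3 lower genes. With the clone block, which sets clone 4 against itself, Rrm2 passed (adjusted p = 0.0321), Ccnb2 did not (-0.65, adjusted p = 0.177), and 4 genes passed in all, each of them higher, against 22.8%. Skeletal muscle, epithelial and neural marker sums were 447, 94.8 and 142 RPKM in the treated library, against at most 166, 14.7 and 53.2 in the untreated clones, and their part in the result was not tested.

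Ccnb2 was also the 1 gene whose change differed from that with Adeno-Cre in wild-type cells, where it had 6.84 and 7.51 RPKM untreated and 13.9 and 9.75 treated. The difference was -1.75 on the log2 scale (SE 0.47, adjusted p = 0.0427), against 3.87% of all genes, and missed the threshold with the clone block (-1.28, adjusted p = 0.058). The count was 0 without wild-type Adeno-Cre clone 2, wild-type untreated clone 3 or Ctcf Wapl untreated clone 3, 2 without wild-type Adeno-Cre clone 3 and 4 without Ctcf Wapl untreated clone 4. Mitosis genes had a median of -0.23 after Adeno-Cre in Ctcf Wapl cells and replication genes 0.12, where the median of all genes was 0.18. Rescaling libraries by the median of ratios brought the median of all genes to -0.003 and that of the 41 genes from -0.059 to -0.24.

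Further genes of the same processes, which are no members of the set, were read the same way. Of 47 further replication genes 36 were tested, and of 59 further mitosis genes 36. In untreated wild-type cells 17 of the further mitosis genes were higher and 0 lower (7.85% of all genes higher), among them Cenph, a kinetochore protein (1.07), and the cytokinesis scaffold Anln (1.04), with a median of 0.52. In untreated Wapl cells 12 further replication genes were higher, against 15.1% of all genes, among them the DNA polymerase delta genes Pold1 (0.92) and Pold2 (0.55) and Gmnn (1.23), whose product geminin restrains Cdt1. In untreated Ctcf cells 10 were lower, against 4.74% of all genes, among them the DNA ligase Lig1 and the polymerase epsilon gene Pole.

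After Adeno-Cre in Ctcf cells the further replication genes that rose included Prim2, a DNA primase subunit, from 3.17 to 17.0 RPKM (2.09, adjusted p = 1.4e-05), and Dut, which removes dUTP, from 3.84 to 10.2 RPKM. Prim2 also passed the test of the difference from Adeno-Cre in wild-type cells (1.62, adjusted p = 0.0145). The spindle motor gene Kifc1 rose from 2.83 to 6.51 RPKM. After 4OHT in Wapl cells 35 of the 36 further replication genes and 33 of the 36 further mitosis genes had negative fold changes (medians -0.27 and -0.35), with 0 and 1 called lower.

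Nascent transcription was measured by GRO-seq in Ctcf(fl/fl) Wapl(fl/fl) cells, where polymerases extend their RNA in isolated nuclei, and deposited as TPM, length-scaled shares of each library's total. The untreated and Adeno-Cre columns each pooled 2 libraries. Columns for Adeno-Cre with 3.5 h of the elongation inhibitor DRB, and with DRB and then 1 d without it (washout), held 1 library each. The pooled libraries came from clones 1 and 2 and the RNA-seq libraries of this line from clones 3 and 4, so these did not share clones. The labels give no clone for the DRB libraries. No column has replicates and the depth is unknown, so values are given with no test. All columns are shares of a fixed total. Single columns were multiplied by 2.0 to bring their totals from 100000 to the 200000 of the pooled columns.

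Replication genes took 111 TPM in untreated cells and 115 TPM after Adeno-Cre, while mitosis genes took 67.5 and 53.1 TPM and G1 cyclins 58.4 and 25.8 TPM. The replication sum was nearly level and the G1 cyclin sum lower. Log2 changes of single genes were taken as log2(TPM + 1), on which the 2-fold limits were also set. On that scale low genes reach the limits less often than by their TPM. All-gene values in the GRO-seq comparisons are of the 13042 genes with at least 1 TPM in both pooled columns. The genes of the set were not filtered in this way, so the counts and shares are not of like genes. Medians were -0.32 for replication and -0.43 for mitosis genes, against -0.55 for all genes. At least 2-fold lower were 1 of 25 mitosis genes and 1 of 21 replication genes, against 21.4% of all genes. Ccnd2 went from 42.0 to 13.9 TPM, Ccnb2 from 8.65 to 3.52 and Tyms, the thymidylate synthase gene, from 31.5 to 14.6. Pcna went the other way, from 8.69 to 20.8 TPM, as did Cdt1, from 3.29 to 7.91, and these were the 2 of 21 replication genes at least 2-fold higher, against 4.13% of all genes. Mcm7, from 11.7 to 23.5 TPM, stayed just under that limit (0.95).

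With DRB the mitosis sum was 25.7 TPM and with washout 34.7, against 53.1 TPM with Adeno-Cre alone, and the replication sums were 164 and 112 TPM. Relative to Adeno-Cre alone 23 of 25 mitosis genes were lower with DRB (median -0.60, against -0.54 for all genes), 6 of them at least 2-fold, against 29.2% of all genes. Ccnb2 had 0.728 TPM with DRB and 3.05 after washout, and Cenpa 1.09 and 0.477 TPM, against 11.6 with Adeno-Cre alone. Of 21 replication genes 14 were lower with DRB and 7 higher (median -0.36, against -0.54 for all genes). At least 2-fold higher were 4 of the 21, against 11.0% of all genes, and 1 was at least 2-fold lower, against 29.2%. Mcm7, among the 4, had 23.5 TPM with Adeno-Cre alone, 72.0 with DRB and 23.9 after washout. It made up much of the higher replication sum with DRB. After washout the mitosis median was -0.46 against 0.023 for all genes, with 21 of 25 genes lower and 1 of them at least 2-fold, against 7.26% of all genes. The pooled wild-type column, for which no source used here names the libraries, had 83.7 TPM for replication, 43.4 for mitosis and 59.0 for G1 cyclins. Mcm7 shares its locus with Ap4m1 and a microRNA cluster, and its reads cannot be told apart from theirs.

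A separate RPKM table held 2 libraries of Ctcf Wapl clone 3, normalized apart and labelled alike as Adeno-Cre cells rested for 10 d. The submitters named this table for serum stimulation, but neither library's treatment label mentions serum, so which of them, if either, had received it is not known. They are called the first and the second library by column and were not tested. Ctcf stood at 3.17 RPKM in the first and 7.62 in the second, and Wapal at 0.902 and 2.09. The replication sum was 168 RPKM in the first and 106 in the second, and the mitosis sum 53.5 and 79.8.

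The 2-fold limits here are on the log2(RPKM + 1) scale, on which low genes reach them less often than by their RPKM. The shares are of the 9760 genes with at least 1 RPKM in both libraries. The genes of the set were not filtered in this way, so the counts and shares are not of like genes. Of 25 mitosis genes 22 were higher in the second library, 3 of them at least 2-fold, against 8.03%. These were Ccnb2 (1.88 and 5.66 RPKM), Cenpa (2.35 and 6.84) and Prc1, which bundles microtubules of the central spindle (1.28 and 4.10). Of 21 replication genes 14 were lower in the second (median -0.27), 4 of them at least 2-fold, against 14.9%. These replication values lay near those of all genes. Rrm2 stood at 24.2 and 10.3 RPKM, Tk1 at 9.11 and 2.47, and E2f1 at 24.4 and 9.50. Myc, which is not in the set, stood at 8.83 and 72.7 RPKM.

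In the RefSeq annotation 20 of the 49 genes overlap another gene, 15 of them a coding gene, for example Kif20a with Brd8 and Cdc23, Tk1 with Afmid and Ccna2 with Exosc9. No source used here says whether the counting was stranded, so reads from overlapping parts cannot be told apart.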

How the data were processed

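RNA-seq measured polyadenylated RNA of quiescent fibroblasts in 29 of the series' 103 samples, and GRO-seq nascent RNA in 10. ChIP-seq samples of the series were not used here. RPKM values of 27 libraries in 12 groups were deposited by the authors, scaled per library per the file headers and values. For GRO-seq the authors' files give TPM (per the file headers), in pooled columns that sum to 200000 and single columns that sum to 100000. The submitters' processing notes name mm9 as the build and, without roles, the tools HTSeq, bedtools, MACS 1.4.2, Bowtie 0.12.5, and TopHat in versions 1.4.1 and 1.3.1. The separate table's 529 repeated entries held no gene of the set.

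Groups followed the labels. Tests used limma 3.58.1 in R 4.3.3 on log2(RPKM + 1) with trend and robust options, 1 mean per group over all 27 libraries (15 residual degrees of freedom), and Benjamini-Hochberg adjustment over 12604 genes. Each untreated line was compared with the mean of the other 5 untreated lines. The clone block (7 residual degrees of freedom) rests on clone numbers in the labels. Deviations of same-clone libraries from their group means correlated at 0.76 in wild-type, 0.68 in Ctcf, 0.49 to 0.70 in Smc3, 0.47 in Wapl and -0.20 in Cre-ER cells. Differences between comparisons were tested as contrasts in the same fit. Libraries are clones of each line. The p-values rest on 1 spread per gene shared by all groups, not on the clones of a comparison alone. The main fit also took treated and untreated libraries of a clone as independent. For 4OHT in Cre-ER cells 0.325% of all genes had an unadjusted p under 0.05, fewer than chance alone gives. The shared spread was thus wide for that comparison, and small changes could be missed.

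Whole reads could be recovered from the RPKM steps for 18150 of 18155 genes (99.97%, tolerance 0.02 reads), and voom on those reads was an alternative. Other alternatives were a pseudocount of 0.1, no filter, median-of-ratios rescaling, no trend or robust options, and leaving out each library. The fit was tested on simulated data. Any gene of the set could be named. Values per library were given for those past the threshold and the most abundant of each role, and others by ranges. Cdk2, which was neither, was also given per library. Of each further list at most 3 genes per comparison were named, those with the smallest adjusted p; a few genes are not reported here. The members and lists were chosen with earlier results of these data known. Of the columns with per-sample values 0 were unused.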

Additional observations from a re-analysis of the deposited data

Results flagged for a closer look

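A clone that stood apart was sought in the 2 groups of 4 libraries, those of the Smc3 floxed cells, by the gap between the highest or lowest library and its nearest neighbour relative to the range (Dixon's test). Of 88 such group tests 8 passed, and chance alone gives such a gap in about 1 in 20 groups. Mitosis genes made up 5 of them in 4OHT-treated clone 1, the only clone with both alleles floxed. Ube2c stood there at 7.861 RPKM against 1.91 to 2.76 in the other 3 treated clones. The central spindle gene Prc1 stood at 4.082 RPKM with 0.928 to at most 1.3 in the others, and Tpx2 at 3.206 against 1.26 to 1.45. Ccna2, cyclin A2, stood at 2.459 RPKM against 0.688 to 0.898, and Nusap1, a spindle protein, at 1.477 against 0.362 to 0.496.

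Ccnd1 was highest in Smc3 clone 3 in both states, at 235.623 RPKM untreated against 150 to 155 in the other clones and 317.314 RPKM with 4OHT against 157 to 183. Cdc20 stood at 5.748 RPKM in untreated Smc3 clone 4 against 4.00 to 4.27 in the other 3.

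The change of Ccnb2 after Adeno-Cre differed between Ctcf Wapl cells and wild-type cells by -1.751 on the log2 scale in a test of the difference itself.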

How the results depend on the processing

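No gene named as called changed the sign of its difference under the alternatives run. The split of calls in treated Ctcf Wapl cells did change, from 1 higher and 1 lower to 4 and 0 with the clone block, 0 and 3 after rescaling, and 0 and 5 without untreated clone 4. Of the numbers of cell cycle genes called (of 41) 197 of 254 under alternatives stayed within 1.5 times the reported ones. With a pseudocount of 0.1, 0 genes passed after Adeno-Cre in Ctcf Wapl cells, 0 for their difference from wild-type cells, and 1 in untreated Cre-ER cells. With no filter on low values 1 passed after Adeno-Cre in wild-type cells, 3 in treated Smc3 cells and 3 for the Ctcf Wapl difference. After median-of-ratios rescaling 0 passed in Ctcf cells, 2 in Wapl cells and 1 in untreated Cre-ER cells, which also had 1 without the trend and robust options. With voom 2 passed in Ctcf, 3 in Smc3 and 1 in Ctcf Wapl cells, 0 for the Ctcf Wapl difference and 5 in untreated Smc3 cells. With the replicate block by clone the counts were 5 in wild-type, 3 in Ctcf, 13 in Smc3, 14 in Wapl and 4 in Ctcf Wapl cells, 0 for the Ctcf Wapl difference, and 1 each for the Smc3 and Wapl differences from Cre-ER cells. The block ended the call of Ccnb2 in Ctcf Wapl cells and for their difference, and no other call. The cause was not tested for any of these.

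Leaving out 1 library at a time gave 0 to 1 genes for Adeno-Cre in wild-type cells, 0 for Ctcf, 2 to 8 for Smc3, 0 to 2 for Wapl, 0 to 5 for Ctcf Wapl and 0 to 4 for the Ctcf Wapl difference. Among untreated lines it gave 2 to 17 for wild-type, 0 to 1 for Cre-ER, 0 to 11 for Ctcf, 5 to 15 for Smc3, 4 to 12 for Wapl and 2 to 11 for Ctcf Wapl cells. The lone treated Ctcf Wapl library could not be left out and is assumed to vary like the other groups. Comparisons between lines could not be fitted with the clone block. Cre-ER clones crossed gave 0 genes. Of the values of single genes called, 954 stayed past the threshold and 242 lost it, none with a change of sign. Many mitosis genes lie within a few RPKM of the filter, where few reads limit precision.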

Other observations

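Genes that restrain the cell cycle, a list of 23 of which 21 were tested, were read in the same libraries and are no members of the set. Cdkn1a, the p21 inhibitor of cyclin-dependent kinases, fell after Adeno-Cre in Ctcf cells from 836 to 557 RPKM (log2 fold change -0.59, limma with Benjamini-Hochberg adjustment, adjusted p = 0.0337). It rose after 4OHT in Wapl cells from 606 to 1023 RPKM (0.76, adjusted p = 0.0181). In these comparisons 1 of 21 brakes fell and 1 of 21 rose, against 7.66% and 2.43% of all genes called in either direction. Cdkn1c, the p57 inhibitor, fell in 4OHT-treated Smc3 floxed cells from 238 to 35.9 RPKM (-2.86, adjusted p = 0.00122), where 3 of 21 brakes rose and 2 fell, against 9.37% and 5.6% of all genes. Cdkn2a, the locus of p16 and p19ARF, rose after Adeno-Cre in wild-type cells from 248 to 428 RPKM (adjusted p = 0.0035).

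In untreated Wapl cells 5 of 21 brakes were lower than in the other lines and 3 higher, against 14.2% and 15.1% of all genes. The p15 gene Cdkn2b was lower (log2 difference -1.18), as were Cdkn2a (-0.54) and Ccng2, cyclin G2 (-0.67).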
